A study of Mus musculus with 6 samples.

Results

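Among the cells of the mouse mitral valve were barcodes with transcripts of developing T cells, the thymocyte-like cells described here. A barcode was counted as one when 300 genes or more were seen in it, mitochondrial transcripts made up no more than 10% of its UMIs (unique molecular identifiers, each standing for 1 captured RNA molecule), and it met 4 conditions on named genes. It had at least 1 UMI of Rag1, Rag2, Dntt and Ptcra in sum, at least 2 UMIs of Cd3e, Cd3d, Cd3g, Cd8b1, Trbc1 and Trbc2 in sum, at most 1 UMI of Cd79a and Lyz2, and less than 0.5% of its UMIs from Dcn, Col1a1 and Col1a2. This found 366 cells among 53526 barcodes that passed the gene and mitochondrial limits, of 58351 deposited. For comparison, 881 barcodes that met the same conditions but had 0 UMIs of Rag1, Rag2, Dntt and Ptcra are called Rag-negative T cells.

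The study sorted live single cells from digested valves of 2 strains, K/B.g7 and B.g7, and profiled them by droplet single-cell RNA sequencing from the 3′ end. K/B.g7 mice carry the transgene of the KRN T cell receptor together with the MHC class II molecule Ag7, and develop autoantibody-driven arthritis and inflamed heart valves, whereas B.g7 mice have Ag7 without the transgene. There were 6 libraries, 1 for each of 3 K/B.g7 ages (3, 8 and 25 weeks) and 1 for each of the same 3 B.g7 ages, all from valves with no further treatment given. The libraries held 15196750 to 69152541 UMIs in all. The labels do not say how many animals a library held. With 1 library for each genotype and age, differences between genotypes at 1 age have no replicate check.

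T cells develop in the thymus from precursors that lack both CD4 and CD8, pass through a stage at which they carry both, and leave as CD4 or CD8 cells. The RAG1 and RAG2 recombinase cuts the receptor genes, terminal transferase (the product of Dntt) adds bases at the joins, and the pre-T alpha chain (Ptcra) pairs with the first beta chain. Cells that have made a beta chain divide before they rearrange the alpha locus, and cells selected on their receptor then lose Rag expression and gain the receptors for exit and survival.

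The genotype labels were first set against the receptor that should tell them apart. The KRN receptor uses the beta chain V gene Trbv19 (Vβ6) and an alpha chain of the Vα4 family, whose genes are named Trav6 and of which the copy Trav6d-4 took nearly all UMIs. Trbv19 lies at chr6:41178375-41179048 on the plus strand and Trav6d-4 at chr14:52753367-52753846 on the plus strand of GRCm38 (mm10), both annotated as receptor V segments. The 3′ end of each transcript, its last 150 bases in GENCODE M21, is shown because these are the genes by which the transgene can be recognised. Capitals mark the stretch from the last TGT, the codon of the conserved cysteine at which the CDR3 loop begins, to the end of the segment.
Trbv19: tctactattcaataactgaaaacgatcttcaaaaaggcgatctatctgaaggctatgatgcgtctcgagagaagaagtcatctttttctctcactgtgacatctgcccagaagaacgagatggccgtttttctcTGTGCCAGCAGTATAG
Trav6d-4: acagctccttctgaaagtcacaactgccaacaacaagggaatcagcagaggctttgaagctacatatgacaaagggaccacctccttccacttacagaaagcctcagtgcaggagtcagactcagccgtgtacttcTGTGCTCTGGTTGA

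These 2 genes did not follow the genotype labels. Among Rag-negative T cells of the libraries labelled K/B.g7, Trbv19 had UMIs in 3 of 31 cells at 3 weeks, 81 of 283 at 8 weeks and 0 of 182 at 25 weeks, the last of which allows a share of up to 1.65%. In the libraries labelled B.g7 Trbv19 had UMIs in 7 of 30 cells at 3 weeks, 37 of 195 at 8 weeks and 0 of 160 at 25 weeks, which allows up to 2.28%. At 8 weeks Trbv19 held 77.0% of 148 Trbv UMIs in the library labelled K/B.g7 and 85.7% of 49 in the one labelled B.g7. Trav6d-4 behaved alike, with 5, 97 and 0 UMIs at 3, 8 and 25 weeks in the T cells of libraries labelled K/B.g7 and 5, 76 and 0 in those labelled B.g7. Trav6-4 is 97.4% identical to Trav6d-4, so reads may be split between these copies.

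Receptor transcripts of the transgene's V genes were thus found in both genotypes at 3 and 8 weeks. They were nearly absent from both at 25 weeks, where few UMIs of any Trbv gene were seen. In barcodes without UMIs of the T cell genes or Ptprc, which encodes CD45, Trbv19 was seen in at most 0.0557% and a Trav6 gene in at most 0.353% of barcodes at 3 and 8 weeks, where Rag-negative T cells had at least 9.68% for either. Median depths at these ages were 3335 to 4424 UMIs in those barcodes and 1395 to 3383 UMIs in the Rag-negative T cells. Trac, the alpha chain constant gene, was highest at 8 weeks in the Rag-negative T cells, at 1177, 2087 and 314 CPM (UMIs of the gene per 1000000 UMIs of that class) at 3, 8 and 25 weeks in the libraries labelled K/B.g7 and 803, 2369 and 425 CPM in those labelled B.g7. The labels are therefore used below only as names of libraries. The cause was not tested.

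**Figure D1:**
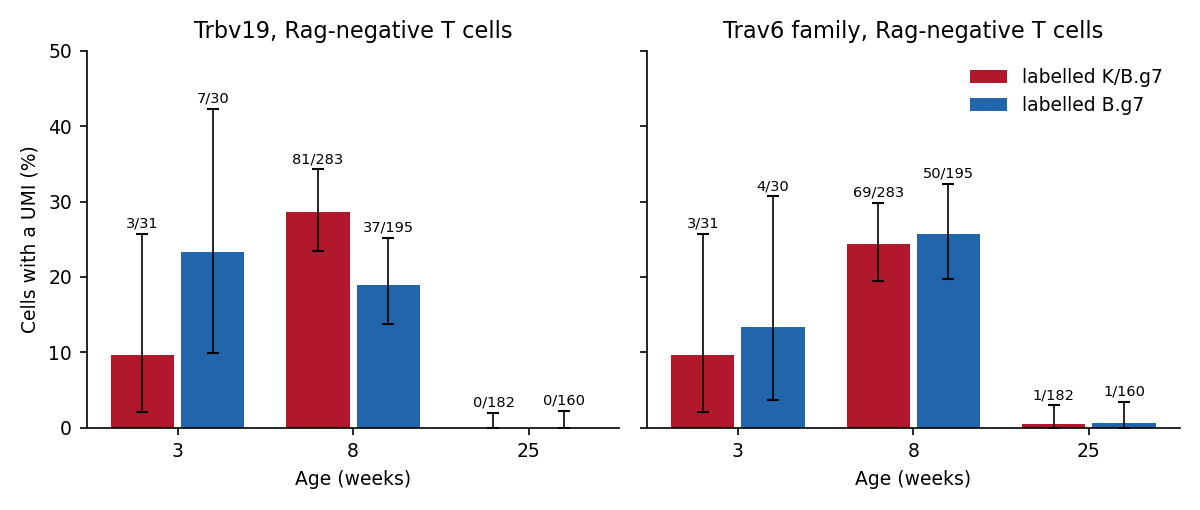
Share of Rag-negative T cells with a UMI of Trbv19 (left) or of the Trav6 family (right) against age in weeks, for libraries labelled K/B.g7 (red) and B.g7 (blue); bars are percentages of cells, lines are exact binomial 95% intervals and the fractions give cells over all cells of the class. Both genotypes have bars at 3 and 8 weeks, and at 25 weeks Trbv19 is at 0 of 182 and 0 of 160 cells.

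The thymocyte-like cells were nearly all in the 25-week libraries, which held 361 of the 366 (98.6%). In the libraries labelled K/B.g7 there were 3, 2 and 119 at 3, 8 and 25 weeks, among 5727, 9318 and 20151 kept barcodes. In those labelled B.g7 there were 0, 0 and 242, among 3774, 5771 and 8785. At 25 weeks they made up 0.591% of kept barcodes in the library labelled K/B.g7 (0.489 to 0.706%, exact binomial 95% interval) and 2.75% in the one labelled B.g7 (2.42 to 3.12%). The counts of 0 in the libraries labelled B.g7 allow shares of up to 0.0977% at 3 weeks and 0.0639% at 8 weeks by the same interval. These intervals and limits cover counting error only.

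Over the 3 ages the share averaged 0.221 ± 0.320% in libraries labelled K/B.g7 and 0.918 ± 1.59% in those labelled B.g7 (SD, n = 3 each). The difference was -0.697 percentage points (two-sided exact permutation test, p = 1.0, where 0.1 is the smallest p that 3 against 3 allows). The 3 libraries of a label differ in age, so the SD and this test take in the change with age. Each label held 1 library of 25 weeks, the age with nearly all these cells, so the test cannot decide between the labels. The difference was set by 1 library: without the 25-week B.g7 library it was 0.221 percentage points, with the sign turned. When each barcode was first thinned to 1000 UMIs, which left out barcodes below that depth, the 25-week shares were 0.208% (40 of 19205) in the library labelled K/B.g7 and 2.09% (178 of 8516) in the one labelled B.g7. Median UMIs of all kept barcodes were 2975 and 5703 in these libraries. The lower quartile of thymocyte-like cells was 791 UMIs in the K/B.g7-labelled library and 1148.75 in the B.g7-labelled one. The limit of 1000 UMIs thus left out a larger part of them in the first, and the thinned shares do not correct for this.

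The Rag-negative T cells were spread over age in another way. They numbered 31, 283 and 182 at 3, 8 and 25 weeks in the libraries labelled K/B.g7 and 30, 195 and 160 in those labelled B.g7. At 8 weeks, when they made up 3.04% and 3.38% of kept barcodes, the thymocyte-like cells were 0.702% of the T cells of both classes in the K/B.g7-labelled library, and none were found beside the 195 in the B.g7-labelled one. At 25 weeks they were 39.5% of these T cells in the library labelled K/B.g7 and 60.2% in the one labelled B.g7. Thymocyte-like cells in which no UMI of Rag1, Rag2, Dntt or Ptcra was captured would be counted as Rag-negative T cells. How many were was not tested.

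**Figure D2:**
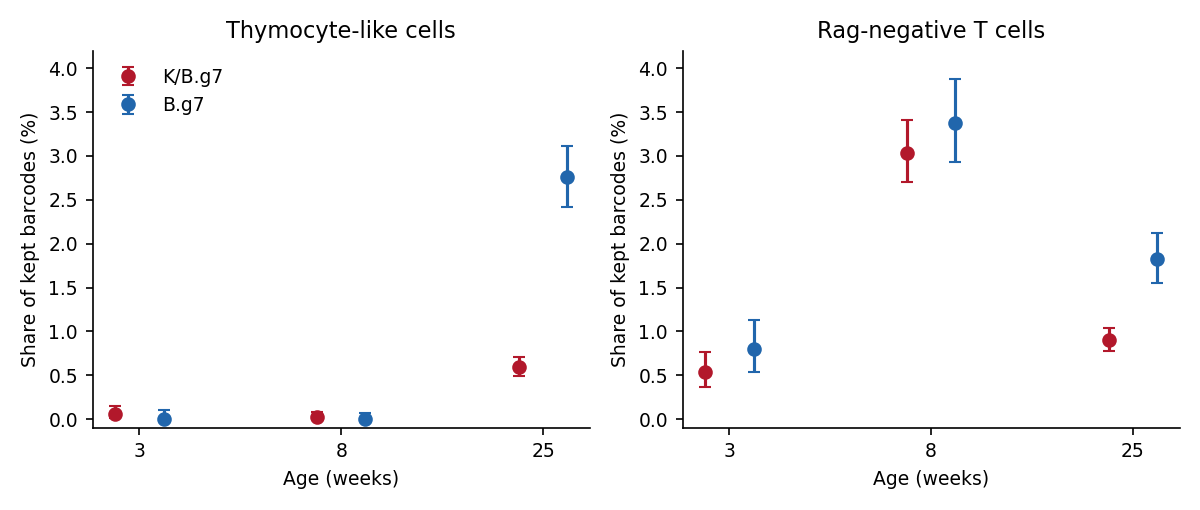
Share of kept barcodes that were thymocyte-like (left) or Rag-negative T cells (right), in percent, against age in weeks, with 1 point per library (red K/B.g7, blue B.g7) and exact binomial 95% intervals. Thymocyte-like cells stand above 0.5% only at 25 weeks, at 0.591% in the K/B.g7-labelled library and 2.75% in the B.g7-labelled one, while Rag-negative T cells are highest at 8 weeks, at 3.04% and 3.38%.

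Few UMIs placed the 5 cells at younger ages in the class. The 3 cells at 3 weeks had 687 to 840 UMIs each and 1 UMI of Rag1, of Dntt, or of both, and the 2 cells at 8 weeks had only Ptcra, with 3 UMIs and 1 UMI. In fibroblast-rich barcodes, those with over 2% of UMIs from Dcn, Col1a1 and Col1a2, a rearrangement gene had a UMI in 0.191% and 0.0506% at 3 and 8 weeks in the K/B.g7-labelled libraries and 0.0732% and 0.351% in the B.g7-labelled ones, cells that should lack these genes. None of them had at least 2 T cell UMIs as well. The 3 and 2 cells were 8.82% and 0.702% of the T cells of both classes in their libraries (1.86 to 23.7% and 0.0851 to 2.51%); the interval of fibroblast-rich barcodes lay below the first (0.0521 to 0.489%) and overlapped the second (0.00128 to 0.281%). The results on gene levels use only the 119 and 242 cells of the 25-week libraries.

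The values that chose these cells are given as a description. Rag1 (chr2:101638282-101649501, minus strand) had UMIs in 82 of 119 cells of the library labelled K/B.g7 and 157 of 242 of the one labelled B.g7, and Dntt (chr19:41029275-41059525, plus strand) in 75 and 210. Rag2 had UMIs in 15 and 40 cells and Ptcra in 11 and 28. At least 2 of the 4 genes were seen in 51 and 155 cells. Dntt stood at 523 CPM in the K/B.g7-labelled library and 1000.3 CPM in the B.g7-labelled one, and Rag1 at 540 and 463 CPM. In fibroblast-rich barcodes of the same libraries, of median depth 2903.5 and 5553 UMIs, a UMI of any of the 4 was found in 24 of 4764 (0.504%) and 8 of 1972 (0.406%).

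Few cells lay near the limits on T cell genes. Cells with exactly 2 UMIs of the Cd3, Cd8b1 and Trbc genes numbered 2 in the library labelled K/B.g7 and 1 in the one labelled B.g7, and otherwise eligible barcodes with 1 such UMI numbered 1 and 0. Exactly 1 UMI of the 4 rearrangement genes carried 38 cells (31.9%) in the K/B.g7-labelled library and 29 (11.98%) in the B.g7-labelled one. The limit on fibroblast transcripts cost more: it kept out 53 of 173 barcodes with the required T cell and rearrangement UMIs in the K/B.g7-labelled library and 24 of 268 in the B.g7-labelled one, of which 27 and 10 had 0.5 to 1% of their UMIs from Dcn, Col1a1 and Col1a2.

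Median depth was 1062 UMIs and 682 genes per cell in the library labelled K/B.g7, against 1526 UMIs and 882.5 genes in the one labelled B.g7. Rag-negative T cells of the same libraries had 1342 and 2172 UMIs. Predicted doublets, taken as the highest Scrublet scores, were 4 of the 119 and 7 of the 242. No barcode sequence was shared between thymocyte-like cells of different libraries, and 4 of them carried a barcode that also stood in another library, among 348 sharings in all.

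Genes outside the gate that differed from Rag-negative T cells included most of those listed for the stage with both co-receptors. Each class was summed within each 25-week library and the classes compared with edgeR's quasi-likelihood test with the library as a block, on 5177 genes that passed the filter on low counts, leaving out the 15 genes of the gate from every count of calls. At a false discovery rate of 0.05, 821 genes (15.9%) were higher in thymocyte-like cells than in Rag-negative T cells and 881 (17.0%) were lower, together 32.9% of those tested. Only these libraries had at least 20 cells of both classes, so the fit had 1 residual degree of freedom. With DESeq2 the counts were 202 and 302. Of 1700 called genes with a symbol of their own, 1689 had the same direction in both libraries.

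Of 15 tested genes of the double positive stage, 13 rose in thymocyte-like cells, 0 fell and 2 did not pass, with a median log2 fold change of 1.57 against -0.01 over all genes tested. Cd4, which the gate did not use, stood at 126 CPM in thymocyte-like and 43.5 CPM in Rag-negative T cells of the library labelled K/B.g7, and at 177 and 70.1 CPM in the one labelled B.g7 (log2 fold change 1.21 ± 0.28 SE, adjusted p = 0.000656). The alpha chain of CD8, Cd8a, stood at 646 and 124 CPM in the K/B.g7-labelled library and at 1090 and 213 CPM in the B.g7-labelled one (log2 fold change 2.18 ± 0.22, adjusted p = 1.71e-11). Both co-receptors were thus higher in thymocyte-like cells of each library. Their exact Poisson intervals, which cover counting error only, did not overlap between the classes for Cd4 or Cd8a.

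Genes known from thymocytes at that stage moved with them. Themis, a signalling protein needed for selection, had a log2 fold change of 1.57, and Satb1, a chromatin organiser of thymocytes, one of 0.69. Ccr9, the receptor for the thymic chemokine CCL25, stood at 272 and 124 CPM in the K/B.g7-labelled library and at 396 and 183 CPM in the B.g7-labelled one. Cd4 and Ccr9 did not pass with DESeq2 or without the library block, and Satb1 did not pass without the block.

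The steepest in this list were Ly6d, Endou and Arpp21. Ly6d, a surface protein of early lymphocytes, had 192 UMIs in thymocyte-like and 27 in Rag-negative T cells of the K/B.g7-labelled library, and 721 and 16 UMIs in the B.g7-labelled one, which is 15.2-fold higher by level over both libraries (exact 95% interval 11.2 to 21.2, counting error only). Endou was 12.7-fold higher (7.78 to 22.0) and Arpp21 8.16-fold higher (6.03 to 11.3). The genes that did not pass were Cd1d1, the molecule that presents lipids to NKT cells (log2 fold change 0.18, adjusted p = 0.758), and Plxnd1 (0.73, adjusted p = 0.149).

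Cells with UMIs of both Cd4 and a Cd8 chain made up 28 of 119 thymocyte-like cells (23.5%) in the library labelled K/B.g7 and 90 of 242 (37.2%) in the one labelled B.g7. Among Rag-negative T cells they made up 9 of 182 (4.95%) and 9 of 160 (5.63%). Cells with a Cd8 chain but no Cd4 UMI were 78 (65.5%) and 132 (54.5%) of the thymocyte-like cells, and cells with Cd4 alone were 2 and 3. After every cell was thinned to 500 UMIs, which left none out, both co-receptors were seen in 5.88% and 11.6% of thymocyte-like cells, and in 2.20% and 1.88% of Rag-negative T cells. At this depth the intervals of thymocyte-like and Rag-negative T cells overlapped in the K/B.g7-labelled library (2.40 to 11.7% and 0.602 to 5.53%) and did not in the B.g7-labelled one (7.83 to 16.3% and 0.388 to 5.38%). The intervals of thymocyte-like cells overlapped between the libraries. Cd8b1 is part of the gate, so a share with a Cd8 chain is partly set by it.

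The earlier stage without co-receptors was hard to see at this depth. Of 13 genes of that stage, 3 were tested. Notch1, the receptor that commits cells to the T lineage, had a log2 fold change of 0.47 (adjusted p = 0.34) and its target Hes1 one of 0.09 (adjusted p = 0.794), while Cd44 fell. Il2ra had 3 UMIs in the 119 cells labelled K/B.g7 and 9 in the 242 labelled B.g7, and Kit had 1 and 0.

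Among 15 factors and signalling genes of the T lineage, 6 rose, 4 fell and 5 did not pass. The risers included Tcf7, which encodes TCF1 and stood at 819 and 291 CPM in thymocyte-like and Rag-negative T cells of the K/B.g7-labelled library and at 1002 and 378 CPM in the B.g7-labelled one (log2 fold change 1.26, adjusted p = 1.49e-06). Myb (1.20), Tcf3 (0.97), Bcl11b (0.75), the adaptor Lat (0.68) and the kinase Lck (0.65) also rose. Those that fell were the adhesion receptor Cd2 (-2.29), Cd5 (-1.56), whose level follows the strength of receptor signalling, the kinase Zap70 (-0.95) and Lef1 (-0.62). Trac did not pass (-0.27, adjusted p = 0.344). In thymocyte-like cells with no UMI of the 10 cycle genes named below, Trac stood at 680 CPM in the K/B.g7-labelled library and 770 CPM in the B.g7-labelled one. Rag-negative T cells had 314 and 425 CPM. With DESeq2, and likewise without the library block, the calls of Tcf3, Bcl11b, Lat, Lck, Cd5, Zap70 and Lef1 were lost.

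Most tested genes of receptor-driven selection stood lower when all cells of a class were summed. Of 7 tested, 6 fell, 0 rose and 1, Id3, did not pass; with DESeq2 or without the library block 3 passed. Cd69, which marks cells that have just been signalled, had 7 UMIs in thymocyte-like and 89 in Rag-negative T cells of the K/B.g7-labelled library, and 38 and 126 in the B.g7-labelled one (log2 fold change -3.01 ± 0.27, adjusted p = 9.82e-13). Itm2a (-2.20) and Tox (-1.81) fell too. These sums weigh cells by their UMIs, most of which lay in the cycling cells described below. Egr1, also called lower, stood at 874 and 280 CPM in thymocyte-like cells with no cycle UMI, K/B.g7-labelled library first. Rag-negative T cells had 491 and 230 CPM. Cd69, at 83.2 CPM in such cells of both libraries, and Itm2a, at 41.6 and 65.6 CPM, stayed below Rag-negative T cells. Other genes of the list were not split this way.

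Genes of maturation and exit from the thymus were the opposite of the double positive list. Of 12 tested, 10 fell, 0 rose and 2, Foxo1 among them, did not pass, with a median log2 fold change of -3.57. Il7r, the receptor for the survival factor IL-7, had 2 and 10 UMIs in thymocyte-like cells of the libraries labelled K/B.g7 and B.g7, and 182 and 200 in their Rag-negative T cells, which is 44.3-fold lower (25.1 to 86.6). S1pr1, which guides cells out of the thymus, was 20.2-fold lower (9.91 to 47.9). Ccr7, the receptor that draws cells to the medulla and lymph nodes, had 0 and 2 UMIs against 29 and 32. Klf2, the factor that switches on S1pr1, stood at 190 and 929 CPM in thymocyte-like and Rag-negative T cells of the K/B.g7-labelled library and at 398 and 1131 CPM in the B.g7-labelled one (log2 fold change -2.02, adjusted p = 3.9e-11).

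**Figure D3:**
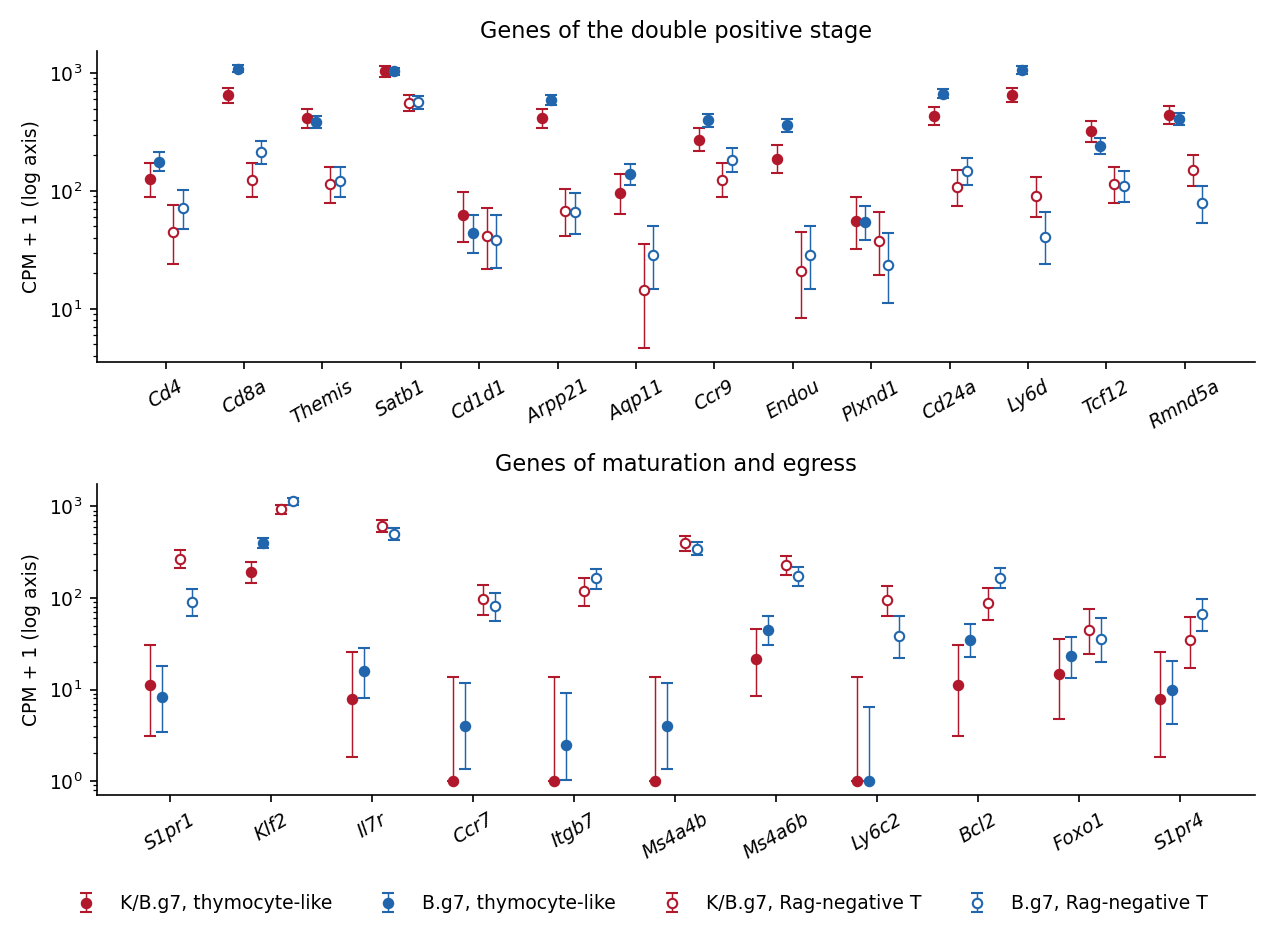
Levels of genes of the double positive stage (top) and of maturation and egress (bottom), as CPM + 1 on a log axis, in thymocyte-like cells (filled) and Rag-negative T cells (open) of the 25-week libraries labelled K/B.g7 (red) and B.g7 (blue); lines are exact Poisson 95% intervals. In each library filled points stand above open ones for the called genes shown in the upper panel, such as Cd8a and Ly6d, and below them for those of the lower one, such as Il7r and Klf2.

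Transcripts of effector T cells were nearly missing. Of 12 tested, 12 fell, with a median log2 fold change of -8.15, or -5.49 when the 6 genes at 0 UMIs in thymocyte-like cells are put at their lower bound. Ccl5, a chemokine of activated T and NK cells, had 0 UMIs in both groups of thymocyte-like cells, against 1989 and 3461 in the Rag-negative T cells of the libraries labelled K/B.g7 and B.g7, and so was at least 2530-fold lower, with the floor of 3 counts taken over both libraries. Ifng had 0 UMIs against 108 and 120 (at least 106-fold lower) and the cytotoxic protease Gzmb 0 against 63 and 60 (at least 57.1-fold lower), and neither passed with DESeq2. Gzma was the exception in level, with 38 and 71 UMIs in thymocyte-like cells, against 287 and 730.

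The other genes with the largest falls were Xcl1, Klrk1, Ccr2, Klrd1, Ccl3, Il18r1, Gimap3, Klra1 and Areg, each at 0 UMIs in all 361 thymocyte-like cells and at least 43.2-fold to 116-fold lower. Klrk1, Klrd1 and Klra1 encode receptors of NK cells and Xcl1 a chemokine they make. The NK and innate lymphoid list fell in 5 of 6 tested genes, so the Rag-negative gate, which asks for few T cell UMIs, held cells with NK transcripts. Their part in these differences was not tested.

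The heavy chain and B2m transcripts of class I antigen presentation were lower in thymocyte-like cells, while proteasome and transporter genes were among those that did not pass. Of 10 genes in the list 6 fell, 0 rose and 4 did not pass. H2-K1, a class I heavy chain, had 23 and 52 UMIs in thymocyte-like cells of the libraries labelled K/B.g7 and B.g7, and 355 and 599 in Rag-negative T cells, which is 17.7-fold lower (13.99 to 22.7). B2m, the light chain, was 5.07-fold lower (4.37 to 5.91). The transporter Tap2 (log2 fold change 0.60, adjusted p = 0.104) and the proteasome subunits Psmb8 (0.10, adjusted p = 0.771) and Psmb9 (-0.39, adjusted p = 0.316) did not pass.

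Of 7 tested gamma delta T cell genes, 5 fell, 0 rose and 2 did not pass, among the latter the delta constant gene Trdc (-0.19, adjusted p = 0.56). Trdv4 had 0 UMIs in thymocyte-like cells, against 28 and 31, and did not pass with DESeq2. Of 7 genes of survival and death, 3 rose, among them Fas (0.93) and Bcl2l11 (0.82), which encodes BIM. Neither of these passed with DESeq2 or without the library block. Pmaip1 fell, though not with DESeq2, and Bcl2l1, which keeps double positive cells alive, had a log2 fold change of 1.06 with an adjusted p of 0.0581. Bcl2, listed with maturation, fell by 2.63. All 10 genes of dissociation and stress fell, from Fos (-0.56) to Hspa1a (-1.73) among those named here, though 5 passed with DESeq2 or without the library block and 6 without the filter on low counts.

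Proliferation genes rose throughout the list. Of 20 tested, 20 were higher in thymocyte-like cells, with a median log2 fold change of 3.47, and the 12 genes with the largest rise, chosen by fitted change, were nearly all of the cell cycle. Ccna2, cyclin A2, had 46 and 121 UMIs in thymocyte-like cells of the libraries labelled K/B.g7 and B.g7, and 0 and 1 in Rag-negative T cells, which is 120-fold higher (21.2 to 4765). Cenpf, a kinetochore protein, was 86.2-fold higher and the motor Kif11 81.1-fold higher. Ncapg, of the condensin complex, had 32 and 34 UMIs against 0 and 0 and was at least 15.8-fold higher. Spc25, Kif15, Clspn, Birc5, Kif22, Nusap1 and Cenph were also among the 12, of which Ncapg and Cenph did not pass with DESeq2.

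Some members were seen in many cells, as Tubb5, a tubulin, with UMIs in 63.0% and 62.8% of thymocyte-like cells and H2afz, a histone, in 55.5% and 59.1%. Cells with at least 3 UMIs of 10 cycle genes (Mki67, Top2a, Cdk1, Ccnb1, Ccnb2, Ccna2, Birc5, Cenpf, Cenpa and Ube2c) were 44 of 119 (37.0%, 28.3 to 46.3%) in the library labelled K/B.g7 and 61 of 242 (25.2%, 19.9 to 31.2%) in the one labelled B.g7, intervals that overlap. Among Rag-negative T cells they were 4 of 182 (2.20%) and 5 of 160 (3.13%). Cells with 1 or 2 such UMIs, near this limit, numbered 7 and 29, and 68 and 152 had none. Thinned to 500 UMIs, a cycle gene was seen in 32.8% and 21.9% of thymocyte-like cells and in 9 of 182 and 8 of 160 Rag-negative T cells. The cycling cells were the larger ones by RNA, with a median of 3496 UMIs in the K/B.g7-labelled library and 5048 in the B.g7-labelled one, against 808.5 and 1296.5 in cells with no cycle UMI. Of the 44 and 61, 3 and 3 were predicted doublets.

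Within each library the cycling thymocyte-like cells differed from those with no cycle UMI in receptor genes. Trdc, which lies inside the alpha locus and is lost when that locus rearranges, had 59 UMIs in cycling and 0 in non-cycling cells of the K/B.g7-labelled library (279 and 0 CPM), and 179 and 16 UMIs in the B.g7-labelled one (458 and 70.0 CPM, ratio 6.54, 3.92 to 11.7). Cells with a Trdc UMI were 54.5% of cycling and 0% of non-cycling cells in the K/B.g7-labelled library, and 60.7% and 7.24% in the B.g7-labelled one. At 500 UMIs a cell these shares were 11.4% and 0% in the K/B.g7-labelled library and 13.1% and 0.658% in the B.g7-labelled one, with intervals that overlapped in the K/B.g7-labelled library and did not in the B.g7-labelled one. Trac ran the other way, at 123 CPM in cycling and 680 CPM in non-cycling cells of the K/B.g7-labelled library, and at 210 and 770 CPM in the B.g7-labelled one.

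Most double positive genes were lower per UMI in the cycling cells. Of 15 genes of that list, 11 in the K/B.g7-labelled library and 15 in the B.g7-labelled one had a ratio of cycling over non-cycling cells whose interval lay below 1. Ly6d went the other way in the K/B.g7-labelled library, at 682 and 527 CPM in cycling and non-cycling cells (ratio 1.29, 0.90 to 1.90), and the intervals of Endou, Aqp11 and Plxnd1 there included 1. Cd4 stood at 80.5 and 264 CPM in cycling and non-cycling cells of the K/B.g7-labelled library and at 74.2 and 324 CPM in the B.g7-labelled one. Themis and Satb1 had ratios of 0.28 to 0.45 over the libraries. Cd8a had ratios of 0.45 (0.33 to 0.61) and 0.62 (0.53 to 0.72). Ccr9 was at 104 and 749 CPM in the K/B.g7-labelled library and at 169 and 731 CPM in the B.g7-labelled one. By share of cells with a UMI, all genes of the list but Ccr9 and Rmnd5a were higher in cycling cells of each library. Arpp21 was seen in 77.3% of cycling and 52.9% of non-cycling cells in the K/B.g7-labelled library, and in 73.8% and 71.1% in the B.g7-labelled one. Cycling cells held more UMIs each, and the same ratios were not counted over all genes. Outside the list, Tcf7 had ratios of 0.68 and 0.71 and Myb of 0.45 and 0.29. Trbc2 had 1.03 and 0.82 and Hist1h2ap, a histone, 13.4 and 17.5. The count of double positive genes can therefore not be read as particular to that list. No test stands behind these comparisons, since the cells of a class share a library, and the intervals cover counting error only.

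Rag1 stood at 208 and 1429 CPM in cycling and non-cycling cells of the K/B.g7-labelled library and at 177 and 906 CPM in the B.g7-labelled one. Every cell had to carry a UMI of the rearrangement genes, which is a larger share of a shallow cell's UMIs, so part of this gap is built into the gate. At 500 UMIs a cell Rag1 was seen in 15.9% and 61.8% of them in the K/B.g7-labelled library and in 14.8% and 42.8% in the B.g7-labelled one. Ptcra, which marks the cells before alpha rearrangement, had 11 UMIs in cycling and 1 in non-cycling cells of the K/B.g7-labelled library and 29 and 8 in the B.g7-labelled one, with ratios of 3.76 (0.546 to 162) and 2.12 (0.946 to 5.37), intervals that include 1. At 500 UMIs a cell it was seen in 2 of 44 cycling and 0 of 68 non-cycling cells of the K/B.g7-labelled library, and in 1 of 61 and 4 of 152 of the B.g7-labelled one, so no order can be read from it.

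**Figure D4:**
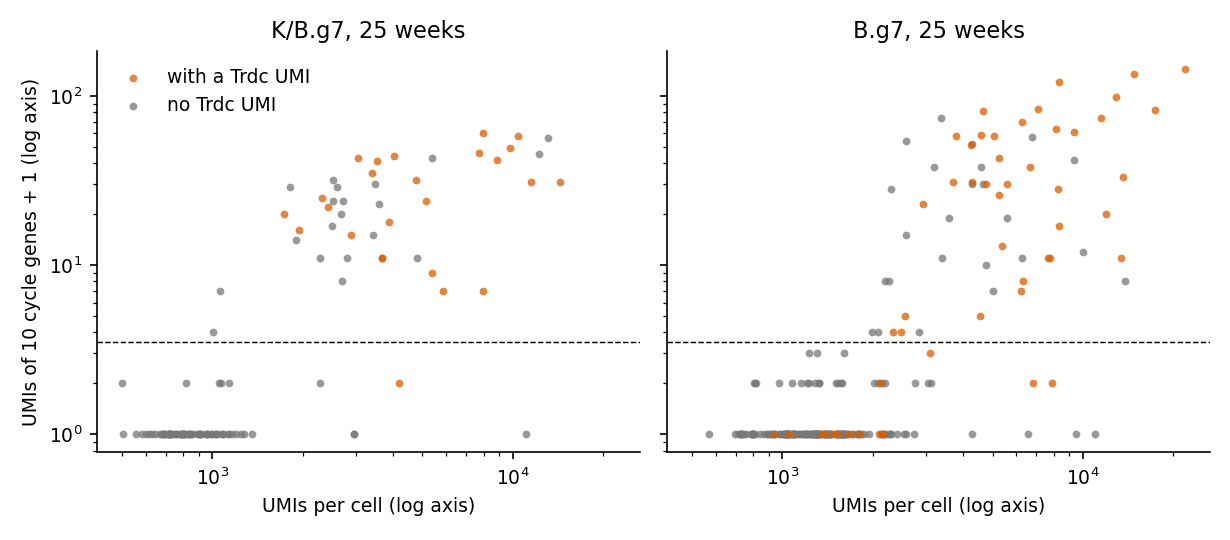
UMIs of 10 cell cycle genes plus 1 against all UMIs, 1 point per thymocyte-like cell of the 25-week libraries labelled K/B.g7 (left) and B.g7 (right), both axes logarithmic; orange points have a Trdc UMI, grey points have none, and the dashed line separates cells with at least 3 cycle UMIs. Most orange points lie above the line, 24 of 25 in the K/B.g7-labelled library and 37 of 52 in the B.g7-labelled one. Of the cycling cells, 54.5% and 60.7% had Trdc.

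The thymocyte-like cells used many beta chain V genes. Their Trbv UMIs numbered 37 over 16 genes in the library labelled K/B.g7 and 55 over 18 genes in the one labelled B.g7. Trbv19 held 1 of the 37 (2.70%) and 4 of the 55 (7.27%), and the whole Trav6 family 1 of 21 and 0 of 32 Trav UMIs. The exact intervals for Trbv19, 0.0684 to 14.2% and 2.02 to 17.6%, lie below the 8-week values of the Rag-negative T cells. They overlap those of Rag-negative T cells in the same 25-week libraries, 0 to 18.5% and 0 to 30.8%. Those cells had 18 Trbv UMIs over 11 genes and 10 over 7 genes, so varied use was not particular to the thymocyte-like cells. In the library labelled K/B.g7 the most frequent genes, Trbv29, Trbv20, Trbv15 and Trbv12-1, had 4 UMIs each.

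Transcripts of the X and Y chromosomes set these cells apart from others in the same libraries. Cells were counted when they had UMIs of Xist but no Y-linked gene (Ddx3y, Eif2s3y, Kdm5d, Uty), or the reverse. In the library labelled K/B.g7, 12 of 91 such thymocyte-like cells were Y-linked (13.2%, 7.004 to 21.9%), against 44 of 103 Rag-negative T cells (42.7%) and 66.3% of all other kept barcodes. In the one labelled B.g7, 2 of 212 were Y-linked (0.943%, 0.114 to 3.37%), against 16 of 125 Rag-negative T cells (12.8%) and 30.3% of all others. Both libraries thus held cells of male and female mice, and the thymocyte-like cells were mostly with Xist in each. Cells with neither kind of UMI were left out, and depth differed between the classes. In the libraries labelled K/B.g7 and B.g7, median depth was 1062 and 1526 UMIs in thymocyte-like cells and 2975 and 5703 in all kept barcodes. The shares at equal depth were not computed. The cells of 1 animal are not separated in these data, so how many animals gave them was not tested.

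**Figure D5:**
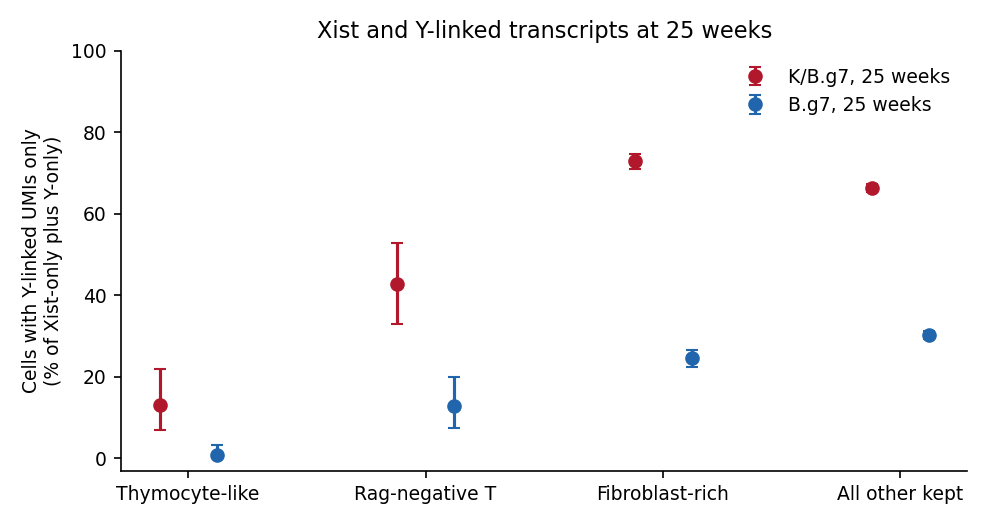
Cells with Y-linked UMIs only, in percent of cells with Xist only plus Y-linked only, in 4 classes of the 25-week libraries labelled K/B.g7 (red) and B.g7 (blue), with exact binomial 95% intervals. Thymocyte-like cells have the lowest value in each library, 13.2% in the K/B.g7-labelled library and 0.943% in the B.g7-labelled one, and all other kept barcodes have 66.3% and 30.3%.

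Markers of other cells were examined in the thymocyte-like cells and in the whole 25-week libraries. Of 10 genes of thymic epithelium, Foxn1, its master regulator, Aire, which drives display of tissue antigens, and Krt5 had 0 UMIs in both libraries. Psmb11, the thymoproteasome subunit, had 6 UMIs in all barcodes of the K/B.g7-labelled library and 2 in the B.g7-labelled one, and Prss16, a protease of cortical epithelium, had 2 and 5. Other genes of the list were seen more: Krt8 had 545 and 746 UMIs, Krt14 140 and 181, Epcam 19 and 58, and Tbata 27 and 15. Krt8 and Krt14 are keratins of many epithelia, and at 8 weeks they had 1171 and 494 UMIs in the B.g7-labelled library, which held 0 thymocyte-like cells. Ccl25 was at 8.40 and 8.00 CPM at 25 weeks and between 6.83 and 11.4 CPM in the younger libraries, where almost no thymocyte-like cells were found. Within the thymocyte-like cells the list had 6 UMIs, all of Ccl25, in the K/B.g7-labelled library and 10 of Ccl25 and 11 of Epcam in the B.g7-labelled one.

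Dendritic cell markers had 0 UMIs in the thymocyte-like cells of either library, and macrophage markers 3 and 9. The macrophage list holds Lyz2 and the B lineage list Cd79a, which the gate limits to 1 UMI a cell in sum, so both counts are partly set by it. Of the B lineage list, with 76 and 223 UMIs, Ighm made up 48 and 201; it was higher in thymocyte-like than in Rag-negative T cells (log2 fold change 1.31, adjusted p = 7.12e-05 with edgeR, a call that DESeq2 did not give). The fibroblast list, which holds the 3 genes that the gate limits, was at 1353 CPM in the K/B.g7-labelled library and 451 CPM in the B.g7-labelled one, against 19309 and 19450 CPM in all kept barcodes. The list of mural cell genes (Acta2, Myh11, Rgs5, Tagln) was at 1838 and 57.5 CPM, against 2679 and 640 CPM in all kept barcodes.

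Gene levels of the thymocyte-like cells were then set side by side between the 25-week libraries labelled K/B.g7 and B.g7. Only this age had at least 20 of the cells in both, so no test across replicates could be made, and ratios are given with exact intervals for counting error. Of 5847 genes with at least 20 UMIs in sum, 721 (12.3%) differed by 2-fold or more, 377 (6.45%) being higher in the K/B.g7-labelled library and 344 (5.88%) lower. The median log2 ratio over all of them was -0.03.

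Of 15 double positive genes 0 passed 2-fold, but their median log2 ratio was -0.51, with 9 lower and 6 higher in the K/B.g7-labelled library. Among genes of the gate, Trbc1 stood at 1849 CPM in the K/B.g7-labelled library and 3872 CPM in the B.g7-labelled one (ratio 0.48, 0.43 to 0.52), and the ratio of Dntt was 0.52 (0.44 to 0.62). Cd8a stood at 646 CPM in the K/B.g7-labelled library and 1090 CPM in the B.g7-labelled one (ratio 0.59, 0.50 to 0.70), Ly6d at 652 and 1062 CPM (0.61, 0.52 to 0.72) and Endou at 187 and 361 CPM (0.52, 0.38 to 0.70). Satb1 stood at 1033 CPM in both (interval of the ratio 0.87 to 1.15) and Themis at 415 and 383 CPM (1.08, 0.87 to 1.35). Split by cycling, Satb1 stood at 1970 and 1536 CPM in non-cycling cells of these libraries and at 691 and 686 CPM in cycling ones. Of 21 proliferation genes 0 passed 2-fold; Top2a stood at 850 and 526 CPM (1.62, 1.37 to 1.90) and Mki67 at 333 and 225 CPM (1.48, 1.13 to 1.92).

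Some genes of signalling and exit differed by more. Hes1 stood at 500 CPM in the cells labelled K/B.g7 and 169 CPM in those labelled B.g7 (ratio 2.95, 2.29 to 3.80), Notch1 at 88.4 and 38.3 CPM (2.31, 1.29 to 4.13), and Egr1 at 343 and 140 CPM (2.45, 1.83 to 3.28). Fos, which responds to tissue dissociation, stood at 1091 and 455 CPM (2.40, 2.04 to 2.81), while Jun stood at 778 and 772 CPM. Cd5 stood at 30.6 and 84.0 CPM (0.36, 0.16 to 0.74) and Klf2 at 190 and 398 CPM (0.48, 0.35 to 0.64). Cycling thymocyte-like cells held 211147 of 294268 UMIs in the K/B.g7-labelled library and 390643 of 678778 in the B.g7-labelled one. Whether the part of cycling cells, depth, the mural and fibroblast transcripts or the animals account for the ratios between these libraries was not tested.

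The 8 genes with the largest ratios above 1 were Cped1, Tagln, Cnn1, Nov, Itga8, Acta2, Mylk and Fmo2, which are genes of smooth muscle and stroma rather than of T cells. A single cell of 11072 UMIs held most of them: of 252 UMIs of Tagln in the K/B.g7-labelled library it had 177, of 220 of Acta2 it had 162, and of 25 of Cnn1 it had 20. This cell had 2 UMIs of the T cell genes of the gate, the least allowed, and 5 of the rearrangement genes. It held 383 of the 541 UMIs of the mural list (70.8%) and was not among the predicted doublets. Another cell, which was, held 60. Without these 2 cells Acta2 stood at 132 CPM in the K/B.g7-labelled library and 23.6 CPM in the B.g7-labelled one, in libraries whose kept barcodes had 1102 and 267 CPM.

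Those among the 8 genes with the smallest ratios that are named here were of 2 kinds. Igfbp5, Ptn and Cldn5, genes of stroma and endothelium, had 172 of their 202, 66 of 76 and 32 of 53 UMIs in the B.g7-labelled library in 1 cell each. Kcnn4, Tssc4, Pld3 and Slc35b1 were spread over cells, at no more than 4 UMIs in any 1 of them. Kcnn4, a potassium channel of activated lymphocytes, had UMIs in 9 of 119 cells labelled K/B.g7 and 61 of 242 labelled B.g7, at 30.6 and 118 CPM (ratio 0.26, 0.11 to 0.52). Pld3 had UMIs in 4 and 45 cells, at 13.6 and 72.2 CPM (0.19, 0.05 to 0.51).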

How the data were processed

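Gene tables of 31053 genes by barcode were deposited by the authors as raw UMI counts, 1 library per genotype and age, made with Cell Ranger 3.1.0 on mm10 per the submitters' processing notes. Levels are UMI counts per 1000000 UMIs (CPM) summed per library and class from the deposited counts, and shares are percentages of barcodes with exact (Clopper-Pearson) 95% intervals. The members, lists and tests were chosen with earlier results of these data known. Summed counts were tested with edgeR 4.0.16 (quasi-likelihood F test, TMM factors, filterByExpr, library as a block, Benjamini-Hochberg adjustment) in R 4.3.3, with DESeq2 1.42.0 as an alternative; adjusted p-values in the text are from edgeR unless DESeq2 is named. On counts simulated for this comparison over 5144 genes, the fit called 42% of 100 genes changed 2-fold and 99% of 100 changed 4-fold, with 6 false calls. The simulation used a fixed dispersion and the same class effect in both libraries, and changed only genes of higher counts. It held no variation of the class effect between libraries, so its false calls do not measure those of the fit to the data. The classes are paired by library and the genotypes by age, both from the labels. Nothing says that libraries came from separate animals beyond their labels. The planned genotype test needed 2 ages with at least 20 cells in both libraries and was not made. Genes named are the 12 with the largest fitted change in each direction, called, of 1 sign in both libraries and at 50 CPM or more, outside the gate, mitochondrial, ribosomal, hemoglobin, immunoglobulin, receptor V, sex-linked and unnamed genes, beside list members of small p or defining role, and the 8 largest ratios in each direction between the 25-week libraries. Some genes that this rule or the lists hold are not reported here, though counts over a list include them. Other genes that are named were chosen after their values were seen. Folds with an interval are ratios of CPM pooled over both libraries, and a gene at 0 was set to a floor of 3 counts. Scrublet, run in scanpy 1.11.5, marked 45 barcodes (0.0841%) by its automatic threshold, which was not used; the highest scores at 0.8% per 1000 barcodes were taken as predicted doublets and kept. GENCODE M21 gave gene positions and V gene transcripts. Alternatives changed the gate, doublets, thinning, normalization, filter, tool and block.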

Additional observations from a re-analysis of the deposited data

How the results depend on the processing

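The mean share of thymocyte-like cells over libraries was lower for the label K/B.g7 under every alternative tried but 1. By age, the difference of K/B.g7 from B.g7 was 0.0524 percentage points at 3 weeks, 0.0215 at 8 weeks and -2.16 at 25 weeks. The lower mean thus rests on the 25-week libraries and is no direction held across ages. Leaving out each library in turn gave differences of -1.16 to 0.221 percentage points, and the sign turned without the 25-week B.g7 library (0.221, exact permutation p = 0.2). Paired by age as a replicate block, the mean difference was -0.697 percentage points (exact sign-flip test, p = 1.0, where 0.25 is the smallest). The 1702 genes called between classes became 504 with DESeq2 (202 higher, 302 lower, 40.1% higher against 48.2% with edgeR) and 699 with no replicate block, all of which were among the 1702; the other alternatives gave 1446 to 1899. Leaving out a library from this fit was not run, since no residual degree of freedom remains, nor were the alternatives of the genotype test. Of 157 listed or named genes followed, 130 were called, and 51 of these lost the call with DESeq2 and 28 without the block; none of the called ones changed sign. Genes that were not called changed sign as follows: Ikzf1 to 0.0705, Cd247 to 0.10 and Tcrg-C2 to 0.0288 without the filter on low counts; Cd247 to 0.0110 and Myh11 to -0.12 without the block; Tcrg-C2 to 0.10 and Bst2 to -0.0635 with at least 2 rearrangement UMIs; Bst2 to -0.0813 and Acta2 to 0.99 without predicted doublets; Bst2 to -0.00714 in cells of at least 1000 UMIs; Acta2 to 1.08 at 5% mitochondrial UMIs, where it passed (adjusted p = 0.00159, edgeR); Myh11 to -0.0205 with DESeq2 size factors; and Tagln to -0.165 with DESeq2. The 721 genes past 2-fold between the 25-week libraries became 679 to 799 under 6 alternatives chosen after seeing the data. At a median of 1062 and 1526 UMIs a cell, genes of few molecules such as Il2ra and Kit could not be followed.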
